A study of Mus musculus with 8 samples.

Results

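The cell cycle and mitosis genes followed here are 44 genes of DNA replication and cell division. They were listed by name, with earlier results of these data known, and fall in 3 classes. These are 11 genes of the S-phase (cyclins E1 and E2, the ribonucleotide reductase subunits, the Mcm2 to Mcm7 helicase and Pcna), 29 genes of mitosis, and 4 genes (Ccna2, Mki67, Cks1b and Melk) whose products act in more than 1 phase. A probe set annotated to a single gene symbol was found for 43 of the 44, among 21789 such probe sets in all, and none was matched to Ccnb1, which is named only. Where a gene had several probe sets (Cks2, Pcna and Top2a), the one with the highest mean was used. RNA was measured on 8 Affymetrix Gene Chip Whole Transcript 1.0ST arrays, each with CD16/32HI or CD16/32LO cells sorted from the tail tumor of a TAX-LUC mouse, 2 mice for each IL-15 genotype. In all 4 mice the Tax oncogene was driven by the granzyme B promoter, which is active in cytotoxic lymphocytes, together with a luciferase reporter (TAX+ LUC+), on an IL-15+/+ or an IL-15-/- background. The tumors arose without treatment. In what follows the IL-15+/+ mice of replicates 1 and 2 are called WT-1 and WT-2 and the IL-15-/- mice KO-1 and KO-2; age went with the replicate number (14 months in WT-1 and KO-1, 12 months in WT-2 and KO-2). IL-15 is a growth and survival cytokine of natural killer and CD8 T cells, and the comparison of genotypes asks how its absence alters the tumor cells. The labels describe the CD16/32HI cells (HI cells below) as malignant and the CD16/32LO cells (LO cells) as tumor infiltrating. The study describes the HI cells as highly enriched in malignant large granular lymphocytes, and the LO cells as enriched in neutrophils.

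A dividing cell copies its DNA in S-phase and separates the copies in mitosis. E2F transcription factors, held back by the retinoblastoma family of pocket proteins, switch on the genes of DNA replication late in G1. Most mitotic genes are switched on later, in G2. They are switched on through CHR elements bound by the MuvB complex with B-MYB and FOXM1, and through CCAAT boxes bound by NF-Y. Transcripts of the mitotic genes are scarce in resting cells and in terminally differentiated cells such as neutrophils, while several replication genes, Pcna among them, are also transcribed outside S-phase.

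Motif letters were counted in the promoters of both classes, as a description with no test of the difference. RefSeq windows of 300 bases (250 before and 50 after an annotated start, GRCm38.p6) were matched by symbol to 37 of the 44 genes, 40 windows in all. Letters searched on both strands were TTTCCCGC, TTTCGCGC, TTTGCCGC and TTTGGCGC for E2F, TTTGAA and TTTAAA for CHR, and CCAAT. The letters of an E2F site occurred in 4 of 10 S-phase windows (40%), in 1 of 27 mitotic windows (3.7%) and in 2.26% of all 32851 windows. The 4 S-phase windows were all of MCM genes (Mcm3, Mcm5, Mcm6 and Mcm7). CHR letters occurred in 23 of 27 mitotic windows (85.2%), in 4 of 10 S-phase windows (40%) and in 27.6% of all windows. CCAAT was frequent in both classes, at 90% of S-phase and 81.5% of mitotic windows against 37.4% of all. A CHR together with a CCAAT box was found in 20 mitotic windows (74.1%), 3 S-phase windows (30%) and 10.7% of all windows. Mcm7, Ect2 and Prc1 were counted with more than 1 window. Those of Ect2 and Prc1 overlap, and each held a CHR and a CCAAT box. Of the 3 windows of spanning genes, 2 held both and 0 held E2F letters. These are matches of letters and not measured binding. Windows of 6 genes are printed below in the direction of transcription, with matched letters in capitals: Ccnb2, Cdk1 and Kif11 as mitotic genes with CHR and CCAAT letters that were called between the populations in 3 of the 4 mice and not over all 4, Kif23 as one with those letters that was called in neither, and Mcm3 and Mcm6 as replication genes with E2F letters. Letters and calls did not go together throughout. Bub1 without CHR letters, and Nuf2 and Nusap1 with neither CHR nor CCAAT, were called in those 3 mice. Aurka, Cdc20 and Ube2c held both and were not called. In the Mcm6 window, TTTGGCGC and the reverse strand's TTTCGCGC overlap.
Ccnb2, chr9:70421505-70421804, minus strand: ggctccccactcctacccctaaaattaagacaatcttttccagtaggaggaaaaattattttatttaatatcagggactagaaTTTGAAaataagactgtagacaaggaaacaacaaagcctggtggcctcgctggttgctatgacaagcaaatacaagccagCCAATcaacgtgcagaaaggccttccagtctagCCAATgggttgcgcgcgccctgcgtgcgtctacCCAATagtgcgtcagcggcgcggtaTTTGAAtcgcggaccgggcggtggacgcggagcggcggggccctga
Cdk1, chr10:69352863-69353162, minus strand: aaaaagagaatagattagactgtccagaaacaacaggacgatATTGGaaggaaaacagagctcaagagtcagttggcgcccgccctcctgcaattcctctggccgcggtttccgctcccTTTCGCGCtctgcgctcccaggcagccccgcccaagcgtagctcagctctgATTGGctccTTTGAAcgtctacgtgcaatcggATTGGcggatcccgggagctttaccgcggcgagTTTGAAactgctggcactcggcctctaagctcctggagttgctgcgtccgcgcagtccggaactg
Kif11, chr19:37376132-37376431, plus strand: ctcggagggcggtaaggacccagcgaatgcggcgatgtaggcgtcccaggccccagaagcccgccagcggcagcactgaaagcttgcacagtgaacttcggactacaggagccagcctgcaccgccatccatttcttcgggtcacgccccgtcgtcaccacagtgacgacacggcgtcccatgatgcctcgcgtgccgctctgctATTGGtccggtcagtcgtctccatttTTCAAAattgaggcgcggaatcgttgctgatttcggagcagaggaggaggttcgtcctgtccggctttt
Kif23, chr9:61946750-61947049, minus strand: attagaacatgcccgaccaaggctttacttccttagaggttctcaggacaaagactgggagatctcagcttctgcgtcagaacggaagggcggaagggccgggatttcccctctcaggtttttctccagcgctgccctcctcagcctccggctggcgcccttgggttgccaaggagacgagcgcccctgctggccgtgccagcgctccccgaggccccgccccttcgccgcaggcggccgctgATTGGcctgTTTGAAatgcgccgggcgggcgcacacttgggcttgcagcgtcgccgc
Mcm3, chr1:20820263-20820562, minus strand: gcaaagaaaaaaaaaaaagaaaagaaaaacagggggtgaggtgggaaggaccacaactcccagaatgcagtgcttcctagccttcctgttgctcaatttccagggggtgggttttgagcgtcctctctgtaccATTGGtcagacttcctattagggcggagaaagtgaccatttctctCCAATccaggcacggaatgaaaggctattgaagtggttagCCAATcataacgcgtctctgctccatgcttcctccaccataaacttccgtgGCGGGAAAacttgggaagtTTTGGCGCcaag
Mcm6, chr1:128359656-128359955, minus strand: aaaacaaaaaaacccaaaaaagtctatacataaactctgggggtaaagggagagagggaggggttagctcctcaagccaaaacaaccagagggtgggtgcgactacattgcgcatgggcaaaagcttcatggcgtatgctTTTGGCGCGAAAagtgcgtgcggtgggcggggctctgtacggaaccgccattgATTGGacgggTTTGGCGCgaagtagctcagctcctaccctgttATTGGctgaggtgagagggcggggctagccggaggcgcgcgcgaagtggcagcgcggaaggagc

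The values are log2 RMA levels of 1 probe set for each gene, and a level does not compare genes. Levels are on 1 scale only among arrays normalized together: those of replicate 1, those of WT-2 and those of KO-2. Ranges and orders over the 8 arrays cross these sets. The median of all probe sets tested was 5.76 in both arrays of WT-2 and 5.99 to 6.04 in the others. Wherever 4 values of a gene are listed they stand in the order WT-1, WT-2, KO-1 and KO-2. Over the 8 arrays the 28 measured mitotic genes had the wider spread. Between the highest and the lowest array they differed by 0.55 to 2.96 on the log2 scale, with a median of 1.94, and the 11 S-phase genes by 0.30 to 2.04, with a median of 0.92. The 4 spanning genes were like the mitotic genes (median range 1.93), and the median over all probe sets tested was 0.79.

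**Figure D1:**
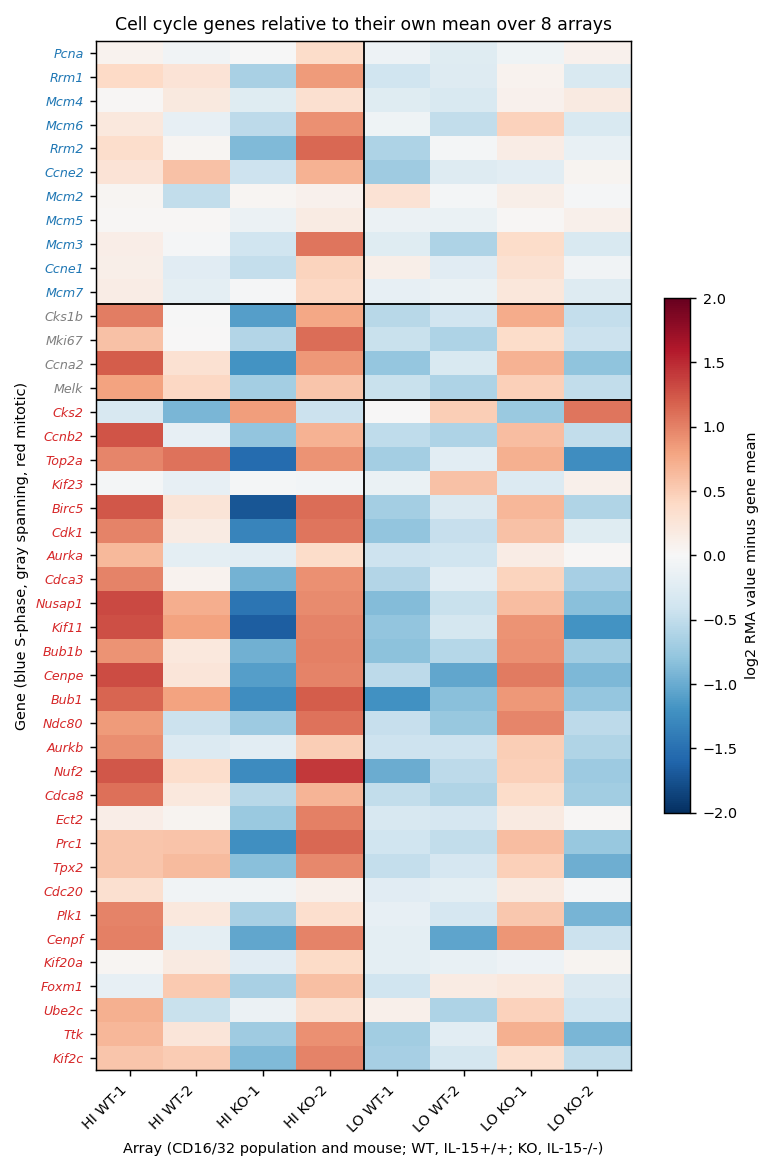
Each row is a gene and each column an array (population, IL-15 genotype, replicate), and the color gives the log2 RMA value minus the mean of that gene over the 8 arrays, red above and blue below, with colors saturating 2 units from the mean. Most mitotic genes (red names) were high in the HI arrays of WT-1, WT-2 and KO-2 and in the LO array of KO-1, with Cks2 running opposite and Kif23 without that pattern. The S-phase genes (blue names) were paler.

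The order of the arrays was not that of their labels. The median of the mitotic genes was 7.69, 6.90, 5.68 and 7.63 in HI cells and 6.03, 5.97, 7.19 and 5.99 in LO cells. That of the S-phase genes was 6.97, 6.83, 6.41 and 7.52 in HI cells and 6.41, 6.55, 6.80 and 6.65 in LO cells. Thus in WT-1, WT-2 and KO-2 the HI cells stood above the LO cells, and in KO-1 they stood below. Of the 43 genes, 23 were lowest of all in the HI array of KO-1 (16 of them mitotic), and 23 were highest in the HI array of KO-2 (10 of the 11 S-phase genes and 12 mitotic genes). A further 16 were highest in the HI array of WT-1.

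Leukocyte markers moved with this order. The median of 8 macrophage markers (C1qa, C1qb, C1qc, Mrc1, Adgre1, Csf1r, Mertk and Cd68) was 10.29, 9.93, 8.62 and 11.08 in HI cells and 8.86, 8.59, 10.59 and 8.77 in LO cells. The median of 8 mature neutrophil markers took the opposite course, at 8.66, 7.90, 11.90 and 8.23 in HI cells and at 11.40, 11.64, 8.75 and 11.47 in LO cells. The 4 arrays with the highest macrophage medians were the same 4 as those with the highest mitotic medians. The natural killer markers were not high in the HI cells, described by the study as enriched in malignant large granular lymphocytes. The median of these markers was 6.12, 5.45, 4.66 and 4.92 in HI cells and 7.37, 6.81, 5.01 and 5.20 in LO cells, with Ncr1 at 4.10 to 5.15 throughout. Of neutrophil precursors, only the earlier stages divide. The 10 precursor markers had a median of 5.57, 5.21, 5.91 and 5.34 in HI cells and 5.91, 5.90, 5.47 and 5.68 in LO cells. Among them Mpo, Elane, Prtn3 and Ctsg were at 3.92 to 6.19 in every array, whereas Ngp was at 5.13, 6.23, 7.52 and 5.07 in HI and 8.70, 10.97, 5.45 and 7.67 in LO cells. Ltf (4.73 to 7.17) and Cebpe (6.01 to 8.10) were likewise highest in the LO array of WT-2 and higher in the HI than in the LO array of KO-1. The part that the makeup of the sorted cells has in the levels of the cell cycle genes was not tested, and in such bulk RNA fewer dividing cells and less transcript per cell cannot be told apart. Whether the 2 arrays of KO-1 had been exchanged was not tested; the genotype differences and the values over 4 mice below depend on their labels, which were kept. The limma comparisons of the cell cycle genes are given with and without KO-1. The ranges over 8 arrays, and the genotype counts of genes separated between arrays or over 3-fold, are given with it only.

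**Figure D2:**
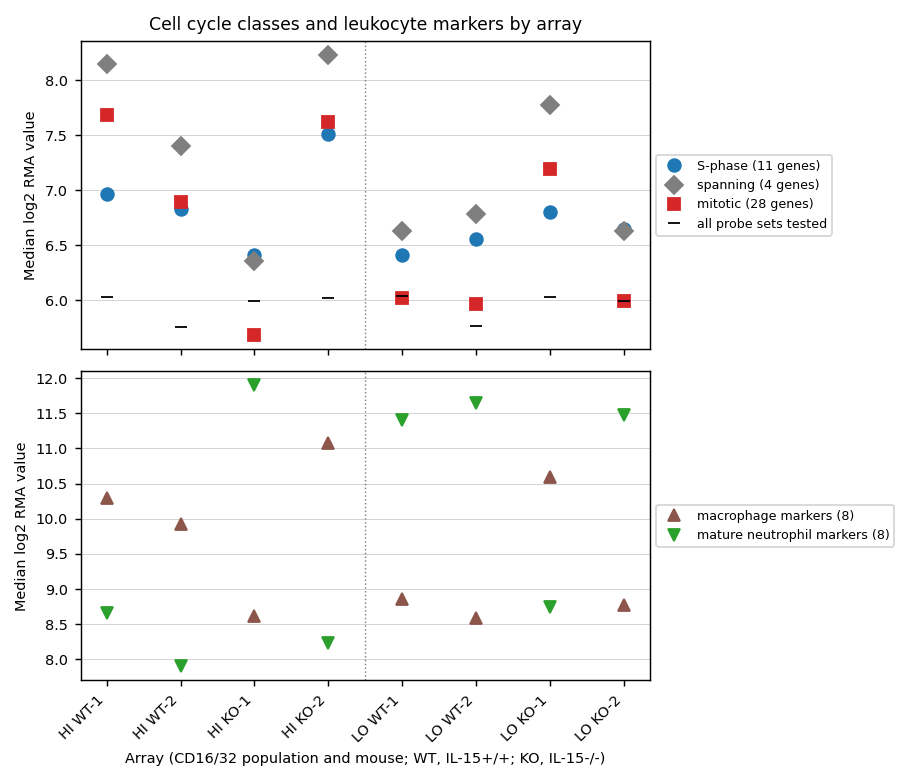
The upper panel gives for each array the median log2 RMA value of the S-phase, spanning and mitotic genes and of all probe sets tested, and the lower panel the medians of 8 macrophage and 8 mature neutrophil markers. Mitotic medians of 6.90 to 7.69 stood in the arrays with macrophage medians of 9.93 to 11.08, and mitotic medians of 5.68 to 6.03 in those with macrophage medians of 8.59 to 8.86.

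Genes that mark cycling cells in general followed the mitotic pattern. Mki67, which encodes the proliferation antigen Ki-67, was at 8.19, 7.61, 7.02 and 8.72 in HI cells and 7.15, 6.98, 7.97 and 7.17 in LO cells. Ccna2, the cyclin of S and G2 phase, was at 8.10, 7.19, 5.69 and 7.75 in HI cells and 6.12, 6.59, 7.58 and 6.09 in LO cells. Cks1b, a cofactor in the destruction of the inhibitor p27, was at 10.53, 9.49, 8.40 and 10.27 in HI cells and 8.94, 9.12, 10.24 and 9.02 in LO cells. In all of these the HI value was the higher in WT-1, WT-2 and KO-2, and the lower in KO-1. These values, like all those below, come from the arrays that the study itself reported, so their course is no independent evidence. Melk, a protein kinase, ranged from 5.21 to 6.69.

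The S-phase genes divided the arrays less sharply. Ccne1, a partner of CDK2 at the start of S-phase, was at 6.36, 6.01, 5.77 and 6.68 in HI against 6.36, 6.004, 6.54 and 6.17 in LO cells. Ccne2, the other such cyclin, was at 6.97, 7.29, 6.28 and 7.40 in HI against 5.99, 6.44, 6.49 and 6.76 in LO cells. For Ccne2, the HI arrays of WT-1, WT-2 and KO-2 were above all 4 LO arrays, while the values of Ccne1 were mixed. Rrm1, the large subunit of ribonucleotide reductase, which makes deoxynucleotides, was at 8.37, 8.25, 7.33 and 8.83 in HI cells and 7.58, 7.73, 8.05 and 7.67 in LO cells. Rrm2, its small subunit, was at 7.14, 6.83, 5.91 and 7.95 in HI cells and 6.18, 6.76, 6.94 and 6.65 in LO cells. The 2 subunits ran together, and the range of Rrm2, 2.04, was the widest of the S-phase class.

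The subunits of the MCM helicase, which unwinds DNA at the replication fork, did not run as 1 group. Mcm3 was at 6.58, 6.42, 6.04 and 7.52 in HI cells and 6.20, 5.83, 6.80 and 6.14 in LO cells. Mcm6 was at 7.83, 7.46, 7.11 and 8.54 in HI cells and 7.55, 7.13, 8.08 and 7.32 in LO cells. Both were highest in the HI array of KO-2 and next highest in the LO array of KO-1. Mcm2 was at 6.64, 6.10, 6.63 and 6.68 in HI against 6.89, 6.55, 6.71 and 6.57 in LO cells, without order by population or genotype. Mcm5 stayed within 0.30 over all arrays, at 6.55, 6.55, 6.41 and 6.69 in HI against 6.41, 6.39, 6.55 and 6.63 in LO cells. Mcm4 and Mcm7 ranged over 7.49 to 8.12 and 5.96 to 6.63. Pcna, the sliding clamp of the DNA polymerases, was nearly level, at 11.14, 11.01, 11.07 and 11.44 in HI cells and 10.97, 10.83, 10.98 and 11.17 in LO cells. A second Pcna probe set, annotated to the same transcripts, read 10.82 to 11.45.

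Several genes of mitotic entry had steeper courses. Ccnb2, a B-type cyclin, was at 9.58, 8.15, 7.52 and 9.002 in HI cells and 7.80, 7.70, 8.93 and 7.82 in LO cells. Cdk1, the kinase of mitotic entry, was at 8.26, 7.44, 5.95 and 8.34 in HI cells and 6.48, 6.81, 7.85 and 7.02 in LO cells. Both had their 4 highest levels in the HI arrays of WT-1, WT-2 and KO-2 and the LO array of KO-1. Plk1, the Polo-like kinase, was at 6.96, 6.18, 5.32 and 6.31 in HI against 5.81, 5.63, 6.50 and 5.04 in LO cells. Foxm1, a transcription factor of the G2 genes, was at 5.60, 6.29, 5.13 and 6.37 in HI against 5.37, 5.93, 5.98 and 5.48 in LO cells, with the HI array of WT-1 below the LO arrays of WT-2 and KO-1. Cdca3, a trigger of mitotic entry, ranged from 6.16 to 8.10, and Aurka, the Aurora kinase of the spindle poles, from 6.72 to 7.77.

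The chromosomal passengers and the kinetochore held some of the widest ranges. Birc5 (survivin) was at 8.96, 7.96, 5.999 and 8.83 in HI cells and 7.04, 7.42, 8.37 and 7.10 in LO cells. Its HI array of KO-1 was more than 1 unit under every other array. Aurkb, the kinase of the passenger complex, was at 7.55, 6.35, 6.40 and 7.12 in HI cells and 6.21, 6.21, 7.12 and 6.02 in LO cells, and Cdca8 (borealin) ranged from 5.85 to 7.65. Bub1, a kinase of the spindle checkpoint, was at 7.88, 7.52, 5.46 and 7.92 in HI cells and 5.51, 5.89, 7.59 and 5.94 in LO cells. Its 4 high and 4 low arrays were separated by a gap from 5.94 to 7.52. Cenpe, a kinetochore motor, was at 8.10, 7.04, 5.69 and 7.79 in HI against 6.28, 5.76, 7.84 and 5.90 in LO cells. Cenpf, a large kinetochore protein, was at 6.97, 5.77, 4.93 and 6.96 in HI against 5.78, 4.92, 6.86 and 5.54 in LO cells. Nuf2, of the complex that binds microtubules, was at 7.80, 6.91, 5.30 and 7.97 in HI cells and 5.57, 6.03, 7.04 and 5.83 in LO cells. These 3 kinetochore genes divided the arrays in the same way, except that Cenpf in the HI array of WT-2 was as low as in the LO array of WT-1. Bub1b, Ttk and Ndc80 ranged from 5.86 to 7.83, 4.58 to 6.41 and 5.93 to 7.77.

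Of the spindle genes, Kif11, Nusap1 and Top2a had ranges of 2.94, 2.78 and 2.63, next to 2.96 for Birc5 and 2.67 for Nuf2 above. Kif11, the motor that keeps the spindle bipolar, was at 8.25, 7.76, 5.31 and 7.94 in HI cells and 6.17, 6.60, 7.86 and 5.76 in LO cells. Nusap1, a spindle protein, was at 8.41, 7.81, 5.62 and 8.02 in HI cells and 6.21, 6.63, 7.70 and 6.24 in LO cells. Top2a, the topoisomerase that untangles the copied chromosomes, was at 9.28, 9.39, 6.76 and 9.21 in HI cells and 7.63, 8.09, 9.02 and 7.06 in LO cells. In each of these the HI array of KO-1 was the lowest of the 8. A second Top2a probe set, at 4.13 to 5.02, did not have that course. Tpx2, Prc1, Kif2c and Ect2 ranged from 5.27 to 7.20, 5.02 to 7.41, 4.50 to 6.38 and 5.56 to 7.31. Cdc20, an activator of the anaphase promoting complex, was at 6.49, 6.11, 6.10 and 6.28 in HI against 5.95, 5.98, 6.36 and 6.16 in LO cells, and so within a range of 0.55. Kif20a and Ube2c, which act in cytokinesis and in anaphase, ranged from 5.67 to 6.29 and 4.96 to 6.29.

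A pair of mitotic genes ran otherwise. Cks2, a CDK subunit, was at 9.50, 8.91, 10.67 and 9.40 in HI cells and 9.84, 10.31, 9.08 and 10.89 in LO cells. It was high where the others were low, and its 2 other probe sets, annotated to the same transcripts, had the same order of high and low arrays. Kif23, a motor of the central spindle, was at 7.81, 7.69, 7.81 and 7.80 in HI cells and 7.72, 8.44, 7.57 and 7.96 in LO cells. Apart from the LO array of WT-2, its arrays lay within 7.57 to 7.96.

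**Figure D3:**
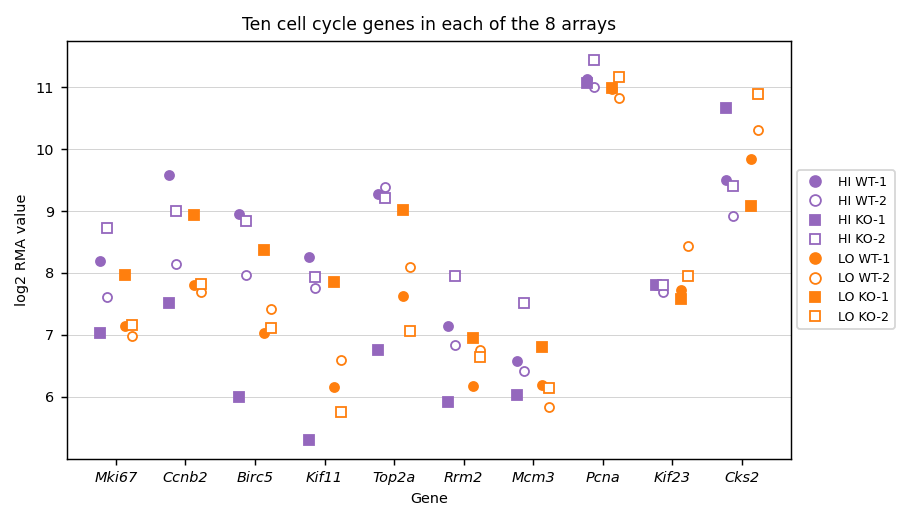
Points are log2 RMA values of 10 genes in each array, purple for HI and orange for LO cells, circles for IL-15+/+ and squares for IL-15-/- tumors, filled for replicate 1 and open for replicate 2. In Kif11, Top2a and Birc5 the filled purple square (HI cells of KO-1) is the lowest point and the filled orange square lies near the other purple points, Pcna spreads by 0.61, Kif23 is highest in the LO array of WT-2, and Cks2 is turned over.

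The populations were first compared within mice, both arrays of a mouse having been normalized together. Over all 4 mice limma called 0 of the 43 genes, as it called 0% of all probe sets; 1 of the genes, Ccne2, had an unadjusted p under 0.05 (log2 difference 0.57, SE 0.221, adjusted p = 0.920), as did 257 of the 21789 probe sets. The median difference, HI minus LO, was 0.18 on the log2 scale for the S-phase genes, 0.48 for the mitotic genes and 0.02 for all probe sets. These are averages over mice of opposite sign. Among the mitotic genes the median was 1.32, 0.55, -1.40 and 1.45 in WT-1, WT-2, KO-1 and KO-2. Among the S-phase genes it was 0.28, 0.18, -0.33 and 0.64 in the same order. The sign of both classes thus turned in 1 mouse, and in each mouse the mitotic median lay further from 0 than the S-phase median. The IL-15+/+ means alone exceeded 3-fold in 3 genes (Bub1, Kif11 and Nusap1, all mitotic), as they did in 0.597% of all probe sets.

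**Figure D4:**
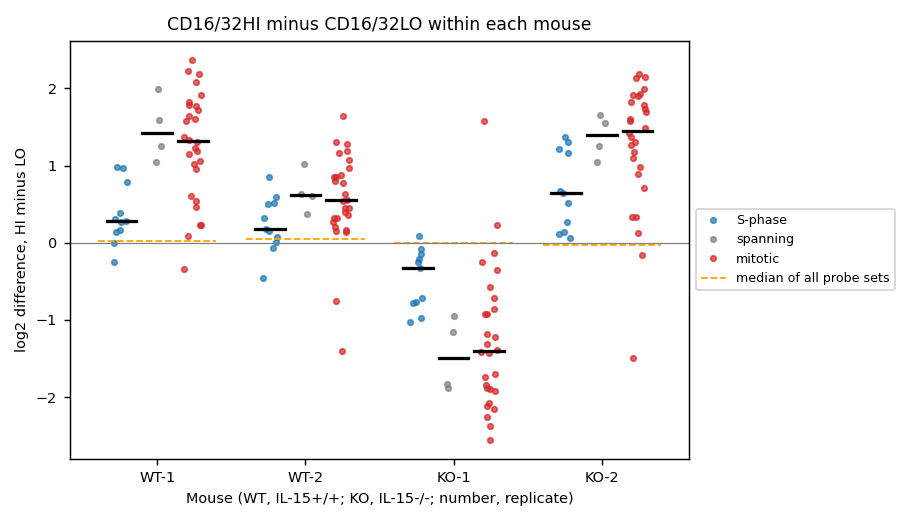
Each point is 1 gene's log2 difference, HI minus LO, within 1 mouse, colored by class; black bars are class medians and the dashed line the median of all probe sets. The mitotic medians were 1.32, 0.55, -1.40 and 1.45 from left to right, and the isolated points of opposite sign to the rest, at -1.40, 1.58 and -1.49 in the last 3 mice, are Cks2.

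KO-1 was then left out, a choice made with its values known, since its macrophage and neutrophil markers ran against its labels. The cell cycle genes ran with those markers, and the calls hold for the other 3 mice only. In these, limma called 29 of the 43 genes higher in HI cells, where 6.67% of all probe sets were, and 1 gene (Cks2) lower, where 7.62% of all were. The 29 were 21 of 28 mitotic genes, all 4 spanning genes and 4 of 11 S-phase genes (Ccne2, Rrm1, Rrm2 and Mcm3). The median difference was 1.17 for mitotic, 1.09 for spanning and 0.30 for S-phase genes, against 0.03 for all probe sets. When all 35557 probe sets, unnamed ones included, were fitted, 15 of 43 were called (13 mitotic, 1 S-phase, 1 spanning), against 5.61% of all: Bub1, Bub1b, Cdca8, Cenpe, Cenpf, Kif11, Kif2c, Nuf2, Nusap1, Plk1, Prc1, Top2a, Tpx2, Ccne2 and Melk. The calls of Mki67, Ccna2, Cks1b, Ccnb2, Cdk1, Birc5, Aurkb, Cdca3, Ttk, Ndc80, Ect2, Rrm1, Rrm2, Mcm3 and Cks2 ended there, with the same differences (adjusted p = 0.0517 for Mki67 to 0.167 for Rrm2). In the fit of 21789 probe sets, leaving out a second mouse as well changed the 30 calls to 20 (without WT-1, where 7.54% of all probe sets were called), 33 (without WT-2, 14.7% of all) or 22 (without KO-2, 10.2% of all). Over the 3 mice 7 of the 8 macrophage markers were called higher and all 8 mature neutrophil markers lower in HI cells, with medians of 2.21 and -2.52.

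Sizes in these 3 mice were largest for spindle and kinetochore genes. Bub1 was higher in HI cells by 1.999 on the log2 scale (adjusted p = 0.000124 from limma, SE 0.169) with 2.37, 1.64 and 1.99 in the 3 mice. Kif11 was higher by 1.81 (SE 0.205, adjusted p = 0.000561) and Nuf2 by 1.75 (SE 0.245, adjusted p = 0.00161). Nusap1, Top2a and Cenpe followed, with 1.72, 1.70 and 1.67. All 3 chromosomal passengers were called, Birc5 with 1.40, Cdca8 with 1.26 and Aurkb with 0.86. So were all 7 genes of the kinetochore and checkpoint. Of mitotic entry, Cdk1 (1.24), Ccnb2 (1.14), Cdca3 (1.14) and Plk1 (0.99) were called, and Foxm1 (0.49, adjusted p = 0.0850) and Aurka (0.53, adjusted p = 0.0964) were not. Of the genes of the anaphase promoting complex, neither Cdc20 (0.27, adjusted p = 0.310) nor Ube2c (0.50, adjusted p = 0.0683) was called. Kif20a (0.29) and Kif23 (-0.27, adjusted p = 0.387) were not called either, whereas the other genes of the central spindle and cytokinesis, Prc1 (1.31) and Ect2 (0.62), were. All these calls are from the fit of 21789 probe sets. With all 35557 fitted, those of Birc5, Aurkb, Ttk, Ndc80, Cdk1, Ccnb2, Cdca3 and Ect2 ended.

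The S-phase differences were smaller and less uniform. Ccne2 (0.83, SE 0.144, adjusted p = 0.00498), Rrm1 (0.82), Mcm3 (0.78) and Rrm2 (0.78, adjusted p = 0.0455) were called higher in HI cells, and Ccne1 (0.18, adjusted p = 0.548) was not. Of the 6 MCM subunits only Mcm3 was called; Mcm6 (0.61, adjusted p = 0.0757) was next, and Mcm2 was at -0.20 (SE 0.156, adjusted p = 0.484). Pcna differed by 0.21 (adjusted p = 0.393). Cks2 was lower in HI cells by the fit (-1.08, SE 0.221, adjusted p = 0.0110), with -0.34, -1.40 and -1.49 in the 3 mice and 1.58 in the mouse left out.

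By direction alone, 38 of the 43 genes (8 S-phase, 26 mitotic, 4 spanning) were higher in HI than in LO cells in each of these 3 mice, a course that 23.8% of all probe sets shared. In KO-1, 40 genes (10 S-phase, 26 mitotic, 4 spanning) were lower in HI cells, as were 50.4% of all. Both held for 37 genes (7 S-phase, 26 mitotic, 4 spanning), and for 19.6% of all probe sets. The mitotic genes outside the 37 were Cks2 and Kif23.

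The genotypes were compared within each population. In HI cells limma called 0 of the 43 genes between IL-15-/- and IL-15+/+ tumors, with 0.0229% of all probe sets called, and 0 of the 43 had an unadjusted p under 0.05 (adjusted p = 0.854 to 0.999). The median difference, IL-15-/- minus IL-15+/+, was 0.04 on the log2 scale for S-phase genes and -0.53 for mitotic genes, against 0.09 for all probe sets. Of the 43 differences 10 were above 0, and without KO-1 37 were. The 3 lowest were Kif11 (-1.38, SE 0.846), Top2a (-1.35, SE 0.785) and Nusap1 (-1.29, SE 0.724), and the 3 highest were Cks2 (0.83, SE 0.594), Mcm2 (0.28, SE 0.257) and Mcm3 (0.28, SE 0.449). The standard errors were of the size of the differences, and the arrays of KO-1 and KO-2 lay apart in most genes. Only Top2a was lower in both IL-15-/- arrays (6.76 and 9.21) than in both IL-15+/+ arrays (9.28 and 9.39), as were 10.4% of all probe sets, and 0 genes were higher in both, as were 24.1% of all. The second Top2a probe set, at low levels, went the other way (4.84 and 5.02 in IL-15-/- against 4.58 and 4.13 in IL-15+/+ arrays). With the mean of its probe sets Top2a differed by -0.38. By mean, 0 genes were over 3-fold lower (0.078% of all) and 0 over 3-fold higher (0.271% of all). The macrophage markers had a median difference of -0.87 in this comparison (2 of 8 above 0) and the mature neutrophil markers 1.64 (8 of 8 above 0), with 0 called in either list; their part was not tested.

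In LO cells the signs were the other way, again with 0 of the 43 genes called (0.0367% of all probe sets called), 0 at an unadjusted p under 0.05, and an adjusted p of 0.99994 for each from limma. The median difference was 0.21 for S-phase genes and 0.40 for mitotic genes, against 0.13 for all probe sets, and 40 of the 43 differences were above 0. Without KO-1, 21 of the 43 were above 0. The 3 highest were Bub1 (1.06, SE 0.748), Cenpe (0.85, SE 0.769) and Cenpf (0.85, SE 0.708), and the 3 lowest were Kif23 (-0.32, SE 0.284), Cks2 (-0.09, SE 0.594) and Mcm2 (-0.08, SE 0.257). Of the 43, 12 were higher in both IL-15-/- arrays than in both IL-15+/+ arrays (Ccne2, Mcm4, Mcm5, Pcna, Mki67, Ccnb2, Cdk1, Aurka, Bub1, Cdc20, Kif20a and Ect2), near the 24.2% of all probe sets that were, and 0 were lower in both, as were 4.7% of all. By mean, 0 genes were over 3-fold lower (0.239% of all) or over 3-fold higher (0.129% of all). The macrophage markers had a median of 1.10 here (7 of 8 above 0), the mature neutrophil markers -0.93 (1 of 8 above 0), the natural killer markers -1.96 (0 of 8 above 0, with Gzma called) and the T cell markers -1.64 (1 of 7 above 0, with Cd8b1 called); their part was not tested.

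The genotype differences depended on the mice set against each other, here KO-1 against WT-1 (replicate 1) and KO-2 against WT-2 (replicate 2). Mice of 1 replicate number shared an age but were not taken as pairs in the fits, so these differences are a description. In HI cells the mitotic median, IL-15-/- minus IL-15+/+, was -1.66 in replicate 1 and 0.57 in replicate 2, and the S-phase median was -0.54 and 0.59. In LO cells the mitotic median was 1.02 and -0.13, and the S-phase median 0.39 and 0.19. Only replicate 1 had both genotypes normalized together; in replicate 2 each genotype had been normalized on its own, and the median of all probe sets was higher in the IL-15-/- arrays, by 0.23 in HI and 0.25 in LO cells. Kif11, for example, differed by -2.94 in replicate 1 and 0.18 in replicate 2 of HI cells, and by 1.70 and -0.84 in LO cells. Rrm2 differed by -1.24 and 1.12 in HI cells and by 0.76 and -0.11 in LO cells. Without KO-1, 1 IL-15-/- array remained in each population, assumed to vary like the other groups, and limma called 0 genes in either. The mitotic and S-phase medians were then 0.25 and 0.44 in HI cells, and -0.12 and 0.13 in LO cells. In this setting 5 genes had an unadjusted p under 0.05 in HI cells, namely Mcm3 (1.02), Rrm2 (0.96), Ect2 (0.91), Mcm6 (0.89) and Mki67 (0.82), each with an adjusted p of at least 0.869, where 5.5% of all probe sets had such a p. In LO cells 1 had it, Top2a (-0.80), against 3.47% of all. Xist, the RNA of the inactive X chromosome, was at 10.08 to 10.75 in the IL-15-/- arrays and 3.92 to 4.64 in the IL-15+/+ arrays, so genotype and the sex of the mice cannot be told apart in any of these comparisons.

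**Figure D5:**
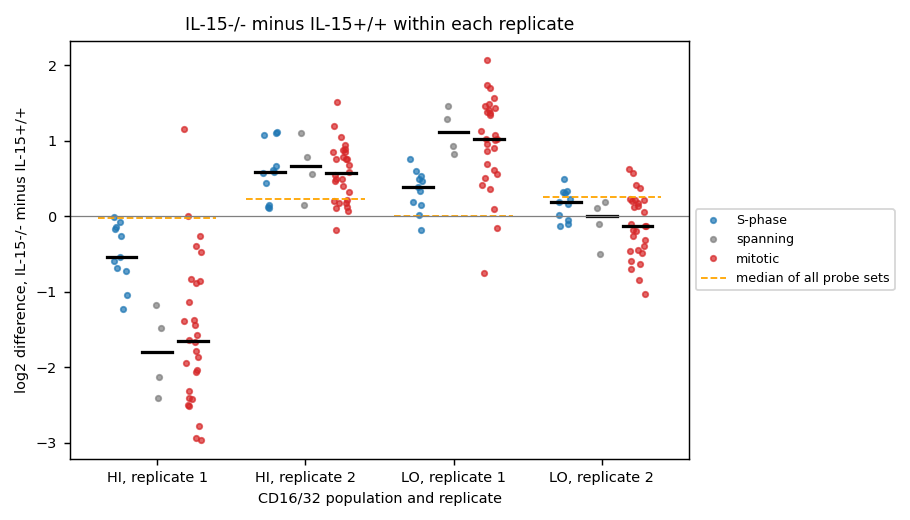
Each point is 1 gene's log2 difference, IL-15-/- minus IL-15+/+, within 1 replicate and population, colored by class; black bars are class medians and dashed lines the median of all probe sets. In HI cells the mitotic median was -1.66 in replicate 1 and 0.57 in replicate 2, in LO cells 1.02 and -0.13, and S-phase medians lay nearer to 0 except in replicate 2.

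Whether the effect of genotype differed between the populations was tested within mice. Of the 43 genes 0 were called, as were 0% of all probe sets, and 0 of the 43 had an unadjusted p under 0.05, as 578 of all did. The median of the difference (the effect in HI minus that in LO cells) was -0.18 for S-phase genes, -0.89 for mitotic genes and -0.05 for all probe sets. Bub1 stood at -2.07 (SE 1.42, adjusted p = 0.878 from limma). Without KO-1 the S-phase and mitotic medians were 0.51 and 0.41. Without KO-2, which leaves KO-1 alone on the IL-15-/- side, assumed to vary like the other mice, 31 of the 43 genes and 13% of all probe sets were called, and the medians were -0.78 and -2.32.

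Other genes of the pathway were counted in lists of regulators and further cell cycle genes. Between the genotypes in either population, between the populations over 4 mice and for the difference of the effect, limma called 0 genes of each of these lists. Over the 3 mice without KO-1, 23 of 41 other mitotic genes were called higher in HI cells and 0 lower (median 0.67), Anln, a scaffold of the cleavage furrow, by 1.77 and Hmmr, a spindle protein, by 1.63. Of 27 genes of replication licensing and nucleotide synthesis 8 were called higher and 0 lower (median 0.35), among them Tyms, thymidylate synthase, by 1.09 and Prim1, a primase subunit, by 1.01. Of 15 E2F and DREAM factors 3 were called higher, E2f8 (1.53), Tfdp2 (0.76) and Lin9 (0.62), and 1 lower, Lin54 (-0.69). Of 8 G1 cyclins, kinases and their regulators, Myc (1.36) and Cdk4 (0.91) were called higher and Ccnd2 (-0.95) and Ccnd3 (-0.58) lower. Of 11 CDK inhibitors, pocket proteins and antiproliferative genes 0 were called higher and 5 lower: Cdkn2d (-0.93), Btg2 (-0.90), Btg1 (-0.88), Rbl2 (-0.74) and Cdkn1b (-0.61), which encode p19, the BTG proteins, p130 and p27. These counts stand against 6.67% of all probe sets called higher and 7.62% called lower, in the same 3 mice in which the macrophage and neutrophil markers differed between the populations. They are from the fit of 21789 probe sets. The lists were not followed in the fit of all 35557, where 15 in place of 30 of the 43 genes were called. Among the list genes named as called, the adjusted p from limma reached 0.0277 (Lin9).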

How the data were processed

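RNA was extracted with RNAeasy from cells sorted by their CD16/32HI or CD16/32LO staining from homogenized tail tumors, and biotinylated cRNA was hybridised to 8 arrays. The deposited values are log2 signals, made by the authors with RMA (background correction, quantile normalization and 1 summary value for each probe set) in Affymetrix Expression Console; versions are not given in the sources used here. Exactly equal values between arrays place the 4 arrays of replicate 1 in 1 normalization set, and those of each genotype of replicate 2 in a set of their own, so levels across sets are not on 1 scale. All columns belonged to a sample (0 did not). Of the probe sets, 21789 carry 1 gene symbol in the platform annotation, 1621 several and 12147 none; the first were tested. Labels do not say that samples are technical repeats, and each array is taken as 1 sample; 2 arrays in a group limit the precision.

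limma 3.58.1 in R 4.3.3 (lmFit and eBayes) was fitted to all 21789, with group means for genotype and a mouse block for the populations and for the difference of effects. Calls are at a Benjamini-Hochberg adjusted p under 0.05. The code was checked on simulated data with capped noise and no mouse effect, which does not measure its performance on these arrays. The pairing of CD16/32HI and CD16/32LO arrays comes from the shared mouse; deviations of paired arrays correlated at 0.361 in IL-15+/+ and -0.458 in IL-15-/- mice. The members and lists were chosen with earlier results of these data known. Values in all arrays are given for a list of leading genes and, in each genotype comparison and the 3-mouse comparison, the 3 highest and the 3 lowest members; of each pathway list, the 2 genes with the largest difference, and all called genes where up to 5 were, chosen after their values were seen. Alternatives were other scalings, probe set choices, blocks, left-out arrays or mice, and the methods' test (analysis of variance within a population, at over 3-fold).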

Additional observations from a re-analysis of the deposited data

How the results depend on the processing

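Under each array centred on its median, quantile normalization, the normalization set as a block, bright probe sets, all probe sets, the mean of a gene's probe sets, the methods' test and the replicate block, the number of cell cycle genes called between genotypes was 0 in both populations. The replicate block changed no call (0 in HI and 0 in LO cells), and same-numbered arrays of the 2 genotypes deviated together only weakly (r = 0.0556 in HI and 0.134 in LO cells), so the numbers were not taken as pairs. Between the populations, no replicate block (that is, no mouse block) also gave 0 over 4 mice, and 23 in place of 30 over the 3 mice; crossing the replicate numbers of the IL-15-/- mice, added after the data were seen, gave 0. The methods' test had 0 genes at an unadjusted p under 0.05 in HI cells and 4 in LO cells (Mcm4, Mcm5, Aurka and Ect2), and 0 after Benjamini-Hochberg adjustment. Fitting all probe sets gave 15 genes called over the 3 mice; the cause was not tested. Mcm6 was called over the 3 mice with quantile normalization, with bright probe sets and without WT-2, whereas the calls of Cenpf, Rrm2 and Mcm3 ended without the mouse block, those of Ccnb2 and Rrm2 without WT-1, and those of Cks2, Rrm2 and Mcm3 without KO-2. Counting spanning genes as mitotic moved no class median beyond the spread between replicates.

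Several genotype differences changed sign. In HI cells Kif23 was at -0.0515 with centred arrays and -0.21 with quantile normalization, Mcm6 at -0.0905 with quantile normalization and -0.19 with the set as a block, and Mcm3 at -0.0597 with that block. In LO cells the set block gave Birc5 -0.0349, Rrm2 -0.0458 and Mcm6 -0.00125. Without KO-1 the mitotic median turned from -0.53 to 0.25 in HI cells and from 0.40 to -0.12 in LO cells, and the S-phase median in HI cells moved from 0.04 to 0.44 with no change of sign. HI cells then had Mki67 0.82, Ccna2 0.10, Ccnb2 0.14, Birc5 0.37, Bub1 0.22, Nuf2 0.61, Cenpe 0.23, Cenpf 0.59 and Rrm2 0.96, and LO cells Ccna2 -0.26, Birc5 -0.12, Kif11 -0.63, Top2a -0.80, Nusap1 -0.18, Cenpe -0.12, Cks2 0.82 and Mcm6 -0.0188.

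With 1 array left out at a time, the S-phase median in HI cells lay between -0.42 (without KO-2) and 0.44 (without KO-1), and the mitotic median between -1.38 and 0.25 in HI and between -0.12 and 0.99 in LO cells. The genotype difference in HI cells ranged from -2.70 to -0.07 for Kif11, -2.57 to -0.13 for Top2a, -2.49 to -0.09 for Nusap1, -0.88 to 0.82 for Mki67, -1.95 to 0.10 for Ccna2, -1.35 to 0.14 for Ccnb2, -2.46 to 0.37 for Birc5, -2.24 to 0.22 for Bub1, -2.06 to 0.61 for Nuf2, -1.88 to 0.23 for Cenpe, -1.44 to 0.59 for Cenpf, -0.00158 to 0.12 for Kif23, -1.08 to 0.96 for Rrm2, -0.46 to 1.02 for Mcm3 and -0.54 to 0.89 for Mcm6. In LO cells it ranged from -0.26 to 1.23 for Ccna2, -0.12 to 1.14 for Birc5, -0.63 to 1.48 for Kif11, -0.80 to 1.16 for Top2a, -0.18 to 1.28 for Nusap1, -0.12 to 1.83 for Cenpe, -0.99 to 0.82 for Cks2, -0.67 to 0.0426 for Kif23, -0.25 to 0.0826 for Mcm2 and -0.0188 to 0.74 for Mcm6. Leaving out 1 mouse at a time, HI minus LO gave 0 to 30 genes called (30 without KO-1), with Birc5 between -0.0339 and 1.40, Kif23 between -0.27 and 0.0524 and Mcm6 between -0.12 and 0.61. The difference of the genotype effect gave 0 to 31 genes called (31 without KO-2), an S-phase median between -0.78 and 0.51 and a mitotic median between -2.32 and 0.41. Differences of single genes above are on the log2 scale. With 2 arrays in a group, every genotype difference of the 43 genes was under 2 standard errors.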
